A study of Mus musculus with 6 samples.

Results

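Integrins are cell-surface receptors made of an alpha and a beta subunit, and laminins are secreted trimers of an alpha, a beta and a gamma chain. Laminins assemble with type IV collagen, nidogen and perlecan into the basement membrane, and integrins tie that sheet to the actin cytoskeleton of the cell above it. In the early mouse embryo the laminin built from Lama1, Lamb1 and Lamc1 lies between epiblast and primitive endoderm, and integrins that share the beta subunit encoded by Itgb1 are its main receptors on pluripotent cells.

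The genes described here encode integrin and laminin subunits, 37 of the 19938 genes tested. They are the genes whose symbol is Itga, Itgb, Lama, Lamb or Lamc followed by a subunit number or letter and that had a probe set with exactly 1 symbol. There were 18 integrin alpha subunits, 9 integrin beta subunits and 10 laminin chains. A probe set is the group of array probes that reports 1 gene or part of it. Where a gene had several, the one with the highest average signal across the 6 arrays was taken, which applied to Itgad alone. Itgbl1, a beta-like gene that is not a receptor subunit, was not counted as a member.

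RNA came from mouse embryonic stem (ES) cells of the Oct4-GiP reporter line. All cells grew on gelatin in N2B27 medium with LIF (1000 U/ml), the MEK inhibitor PD0325901 (1 μM) and the GSK3β inhibitor CHIR99021 (3 μM), so that both groups share the kinase inhibitors. The untreated group (3 arrays) received no vitamin C, and the vitamin C group (3 arrays) received L-ascorbic acid 2-phosphate at 200 μg/ml for 72 hours. The comparison asks what vitamin C changes in the RNA of these cells. The submitters describe biological triplicates without saying what was repeated, so p-values measure the spread between these arrays.

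The values are log2 signals, in which a difference of 1 is a 2-fold change. Each probe set has its own response, so signals of different genes are not ranked. They are only set against the medians and lower quartiles of the arrays and, for cell type markers, added up. Such a sum follows its brightest probe sets. Array medians lay between 5.52 and 5.60 and lower quartiles between 3.99 and 4.05, and a gene whose group mean is under the lowest of these quartiles is called dim below. Arrays of 1 group correlated at 0.995 to 0.996 across genes and arrays of different groups at 0.989 to 0.990. The ES cell label was checked against 8 markers, of which Pou5f1 (11.26 untreated, 11.14 vitamin C), Nanog (11.55 and 11.84) and Sox2 (9.92 and 10.06) stood far above the array medians. Of those 8 markers, Nanog, Zfp42 and Dppa3 rose and none fell, so that 37.5% passed the test given below, beside 13.2% of all genes. RNA was taken from whole cultures, so fewer cells of a type and less RNA per cell cannot be told apart.

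With vitamin C, 3 of the 37 subunit genes rose and 3 fell, all by 1.54-fold or less. Those that rose were the integrin gene Itga8 (1.54-fold) and the laminin alpha chain genes Lama4 (1.34-fold) and Lama3 (1.21-fold). Those that fell were the integrin genes Itgb7 (1.39-fold), Itgae (1.245-fold) and Itgb1 (1.18-fold). The chains of the embryonic laminin, Lama1, Lamb1 and Lamc1, and the laminin-binding integrin alpha subunits Itga3, Itga6 and Itga7 did not pass the test. A gene passed at an adjusted p under 0.05 in limma's moderated test, with Benjamini-Hochberg adjustment over all genes. The 6 genes are 16.2% of the members, where 13.2% of all genes tested passed, so the share lies near the background. By direction, 5.75% of all genes rose and 7.4% fell. The median log2 difference of the 37 genes, vitamin C minus untreated, was 0.0041, and that of all genes was 0.012. The median size of the difference, sign left aside, was 0.095 for the members and 0.126 for all genes. Untreated and vitamin C signals lay fully apart for 12 members (32.4%) and for 35% of all genes.

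**Figure D1:**
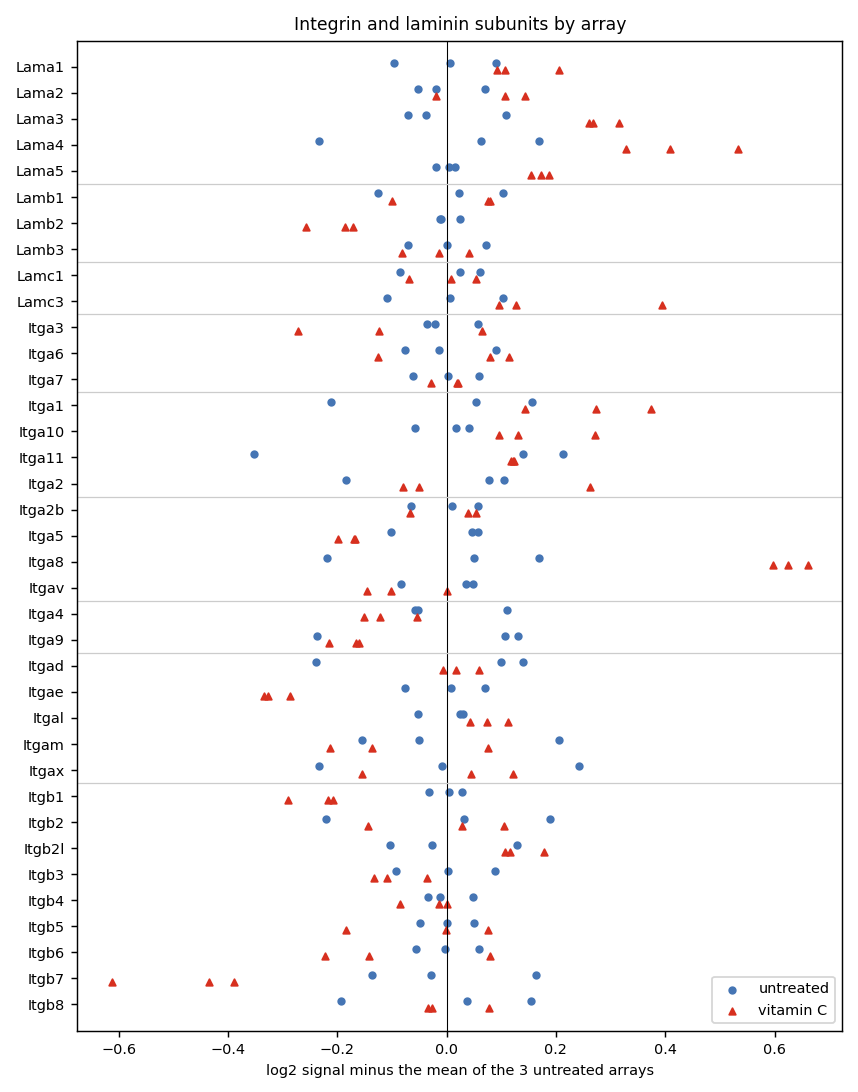
Log2 signal of each of the 37 subunit genes on every array, minus the mean of the 3 untreated arrays of that gene (x axis), with untreated arrays as blue circles and vitamin C arrays as red triangles. Grey lines separate, from the top, laminin alpha, beta and gamma chains, laminin-binding, collagen-binding and RGD-binding integrin alpha subunits, Itga4 with Itga9, leukocyte alpha subunits, and beta subunits. The groups stand apart for 12 genes, among them Itga8 to the right and Itgb7 to the left.

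Among the laminin alpha chains, which carry the sites that integrins and dystroglycan bind, Lama3 and Lama4 rose and Lama1, Lama2 and Lama5 did not pass. Lama4 encodes the alpha chain of laminins around blood vessels and in mesenchyme. Its log2 signal was 3.81, 3.92 and 3.52 on the untreated arrays and 4.16, 4.08 and 4.28 with vitamin C. All vitamin C arrays lay above all untreated arrays, and the untreated mean was dim. The difference was 0.42 ± 0.11 (SE), with adjusted p = 0.0494 in limma's test. This call held without untreated replicate 2 (adjusted p = 0.0461) and was lost when any other array was left out (limma, adjusted p = 0.0752 to 0.137). It was lost in 10 of its 14 alternative settings, among them a test without moderation (adjusted p = 0.156).

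Lama3 encodes the alpha chain of the laminin under stratified epithelia. Its signals were 5.44, 5.30 and 5.27 untreated and 5.60, 5.65 and 5.60 with vitamin C. The groups did not overlap, and untreated replicate 1 lay nearest to the vitamin C arrays. The difference was 0.28 ± 0.069 (SE, limma adjusted p = 0.0387). Without untreated replicate 1 the adjusted p was 0.0378, and without any other array the call was lost (limma, adjusted p = 0.0887 to 0.115). It was lost in 10 of its 15 alternative settings, among them a test without moderation (adjusted p = 0.0718).

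Lama5 encodes the alpha chain of the laminin that is widespread in epithelial basement membranes and that supports pluripotent cells in culture. Its signals were 6.73, 6.69 and 6.72 untreated and 6.90, 6.87 and 6.89 with vitamin C. The groups stood apart, with an SD of 0.018 untreated and 0.017 with vitamin C (n = 3 each). The difference of 0.17 ± 0.056 (SE, limma adjusted p = 0.0902) did not pass, and a test without moderation passed it (adjusted p = 0.0162 over all genes). Its 95% interval ran from 0.040 to 0.30.

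Lama1, the embryonic alpha chain, read 6.56, 6.66 and 6.74 untreated and 6.74, 6.86 and 6.76 with vitamin C. The lowest vitamin C array lay just above the highest untreated array. The difference was 0.13 ± 0.073 (SE, limma adjusted p = 0.271), with a 95% interval from -0.036 to 0.30. Lama2, the alpha chain of muscle and nerve laminins, differed by 0.077 with overlapping groups (limma adjusted p = 0.529). All 5 alpha chain differences were above 0, as were 52.8% of those of all genes, and each kept that sign in all of its alternative settings. In 4 of the 5 genes all vitamin C arrays lay above all untreated arrays, which was the case for 16.8% of all genes.

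The beta and gamma chains did not pass. Lamb1, the beta chain that pairs with Lama1, read 6.53, 6.38 and 6.61 untreated and 6.41, 6.58 and 6.59 with vitamin C. Lamc1, the gamma chain of most laminins, read 9.35, 9.24 and 9.39 untreated and 9.26, 9.38 and 9.33 with vitamin C. In both genes the groups overlapped. The difference of Lamb1 was 0.018 ± 0.086 (SE, limma adjusted p = 0.915) and its 95% interval ran from -0.18 to 0.22. For Lamc1 the difference was -0.0029 ± 0.069 (SE, limma adjusted p = 0.983), with an interval from -0.16 to 0.16.

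Lamb2, a beta chain of neuromuscular and kidney laminins, went the other way from the alpha chains. It read 6.86, 6.86 and 6.90 untreated and 6.62, 6.70 and 6.69 with vitamin C, with all vitamin C arrays below all untreated arrays. The difference of -0.21 ± 0.059 (SE, limma adjusted p = 0.0630) did not pass. With dim genes left out of the test it passed (adjusted p = 0.0335), and without moderation it passed as well (adjusted p = 0.0376). Lamb3, which pairs with Lama3, differed by -0.018 (limma adjusted p = 0.890), and Lamc3 by 0.21 ± 0.099 (SE, limma adjusted p = 0.220) with overlapping groups.

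**Figure D2:**
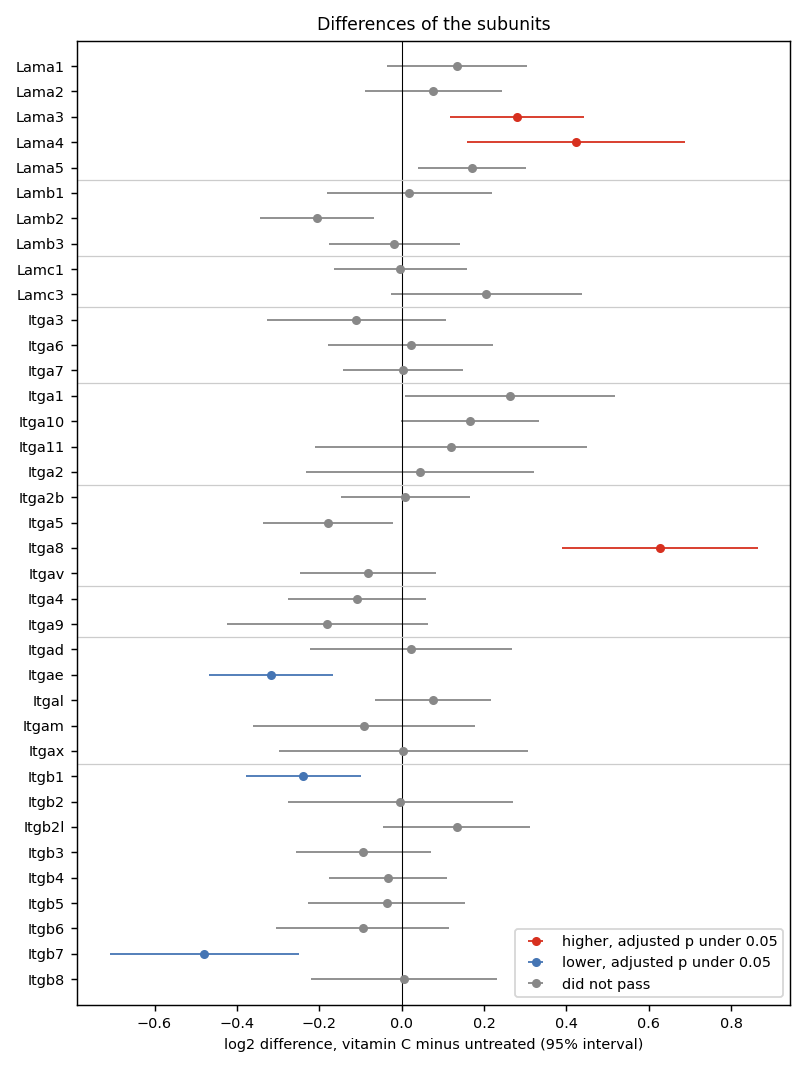
Log2 difference of each subunit gene, vitamin C minus untreated (x axis), with its 95% interval from limma. Red marks the 3 genes that rose, blue the 3 that fell and grey the 31 that did not pass. Itga8 (0.63) and Itgb7 (-0.48) lie at the ends, and all 5 laminin alpha chains lie right of 0.

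Itga8 had the largest difference of the 37 genes. It encodes an integrin alpha subunit that pairs with the product of Itgb1 and binds ligands with the Arg-Gly-Asp (RGD) motif, of which nephronectin (Npnt) is the best known from kidney development. Its signals were 4.23, 4.62 and 4.50 untreated and 5.11, 5.05 and 5.08 with vitamin C. The groups lay well apart, and the untreated arrays spread more (SD 0.199, n = 3) than the vitamin C arrays (SD 0.032, n = 3). The difference was 0.63 ± 0.10 (SE, limma adjusted p = 0.00888). The call held with any 1 array left out (limma, adjusted p = 0.0116 to 0.0380) and was lost in a test without moderation (adjusted p = 0.0614). Npnt rose by 0.49 ± 0.087 (SE, limma adjusted p = 0.0117), a call that was likewise lost without moderation (adjusted p = 0.0605) and held with any 1 array left out (limma, adjusted p = 0.0206 to 0.0435).

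The partner gene Itgb1 encodes the beta subunit shared by many integrins, among them the receptors for laminin, collagen and fibronectin. Its signals were 8.98, 9.01 and 9.04 untreated and 8.72, 8.79 and 8.80 with vitamin C. The groups did not overlap. The gene fell by 0.24 ± 0.060 on the log2 scale (SE, limma adjusted p = 0.0402). Leaving out any single array ended the call (limma, adjusted p = 0.0805 to 0.115), while the difference then stayed between -0.25 and -0.21. The call was lost in 9 of its 15 alternative settings. These included a further quantile normalization (limma adjusted p = 0.0530) and the replicate number as a block (limma adjusted p = 0.0855).

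Itgb7 and Itgae encode the beta and alpha subunits of an integrin of intraepithelial lymphocytes that binds E-cadherin. Itgb7 read 6.36, 6.25 and 6.55 untreated and 5.995, 5.95 and 5.77 with vitamin C. It fell by 0.48 ± 0.098 on the log2 scale (SE, limma adjusted p = 0.0203). The call was lost in limma without untreated replicate 1 (adjusted p = 0.0556) or 3 (0.0538) and without vitamin C replicate 3 (0.0622). It was also lost in a test without moderation (adjusted p = 0.0894). Testing all probe sets (limma adjusted p = 0.0584) or using the replicate number as a block (limma adjusted p = 0.0602) lost it too. For Itgae the signals were 4.86, 4.92 and 4.77 untreated and 4.56, 4.52 and 4.51 with vitamin C. In both genes every vitamin C array lay below every untreated array. Itgae fell by 0.32 ± 0.064 on the log2 scale (SE, limma adjusted p = 0.0199). That call held without untreated replicate 3 (adjusted p = 0.0338) and was lost without any other array (limma, adjusted p = 0.0518 to 0.0649). It was also lost with the replicate number as a block (limma adjusted p = 0.0524).

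Itga4, the other alpha subunit that pairs with the product of Itgb7, differed by -0.11 ± 0.072 (SE, limma adjusted p = 0.360), with overlapping groups. Madcam1, the vessel ligand of that pair, fell by 0.57 ± 0.091 on the log2 scale (SE, limma adjusted p = 0.00854). The E-cadherin gene Cdh1 differed by 0.20 ± 0.064 (SE, limma adjusted p = 0.0891) and did not pass.

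The culture was also examined for leukocyte RNA, since Itgae and Itgb7 are best known from lymphocytes. Of 9 measured leukocyte markers none rose and 1 fell, the lysosomal gene Cd68 (-0.67), so that 11.1% passed, beside 13.2% of all genes. The summed marker signal, as the log2 of the sum of unlogged signals, was 11.54 to 11.60 untreated and 11.50 to 11.60 with vitamin C. The defining marker Ptprc (3.33 untreated and 3.61 with vitamin C) and the macrophage gene Adgre1 (3.17 and 3.23) were the only 2 dim in both groups. Above the array medians lay Cd3e (7.0049 and 7.0096), Cd68 (8.885 and 8.21) and Laptm5 (11.17 and 11.24), the probe set that the sum follows most. Cd14, Coro1a, Csf1r and Spi1 read from 4.16 to 5.59 untreated and from 4.18 to 5.54 with vitamin C. The part of leukocyte RNA in the differences of Itgae and Itgb7 was not tested.

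**Figure D3:**
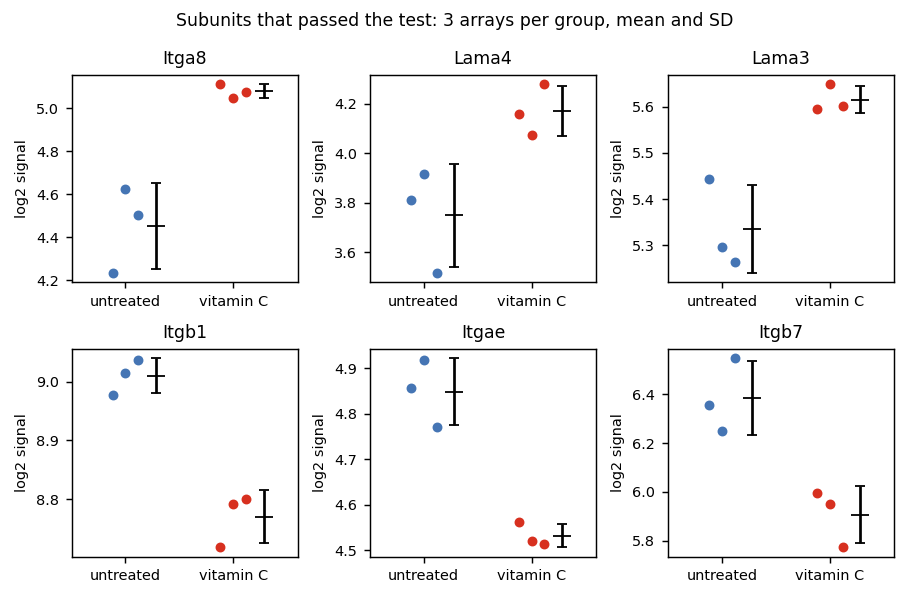
Log2 signal of the 6 subunit genes that passed the test, with 3 untreated arrays (blue) and 3 vitamin C arrays (red) as points and the mean with its SD in black beside them. Each panel has its own y axis that does not start at 0. In all 6 panels the groups stand apart, by the widest margin in Itga8.

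The sequences upstream of the start sites are shown for the members that passed and were listed in the promoter table of RefSeq (build GRCm38.p6), to make visible how they differ in CG dinucleotides, the sites of DNA methylation, which vitamin C is known to affect through the TET enzymes. Each run is the 250 bases before the annotated start, read 5′ to 3′ on the strand of the gene, with CG in capitals. Itga8 lies at chr2:12301945-12302194 (minus strand), Itgb1 at chr8:128685404-128685653 (plus strand) and Itgb7 at chr15:102231936-102232185 (minus strand).
Itga8: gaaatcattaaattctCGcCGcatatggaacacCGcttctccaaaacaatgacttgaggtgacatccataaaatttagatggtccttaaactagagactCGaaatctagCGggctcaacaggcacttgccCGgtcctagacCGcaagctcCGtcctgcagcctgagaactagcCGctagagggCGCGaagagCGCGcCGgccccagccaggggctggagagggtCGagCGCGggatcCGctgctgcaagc
Itgb1: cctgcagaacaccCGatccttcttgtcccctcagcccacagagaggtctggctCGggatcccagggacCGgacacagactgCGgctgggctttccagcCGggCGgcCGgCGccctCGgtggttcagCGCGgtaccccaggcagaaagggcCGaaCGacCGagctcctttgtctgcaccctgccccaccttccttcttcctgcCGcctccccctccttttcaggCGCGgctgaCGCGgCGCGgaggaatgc
Itgb7: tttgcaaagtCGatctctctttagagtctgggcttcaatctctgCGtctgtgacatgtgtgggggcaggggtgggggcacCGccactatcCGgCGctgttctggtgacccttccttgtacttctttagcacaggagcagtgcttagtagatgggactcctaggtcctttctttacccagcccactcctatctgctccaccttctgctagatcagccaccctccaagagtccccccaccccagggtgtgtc

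Itga8, which rose, holds 18 CG dinucleotides in this window, and Itgb1, which fell, holds 21. Itgb7, which fell as well, holds 5, all in the part farthest from the start. Over the 32851 windows of this length in the table the median was 6, and 27.3% held 15 or more. The table listed windows for 24 of the 37 members, 27 in all, with a median of 10 CG dinucleotides, and 6 of these windows (22.2%) held 15 or more. Windows with 15 or more also belonged to members that did not pass, such as Itgav (18), Itgb5 (18) and Lama5 (19). The core of the hypoxia response element, ACGTG or GCGTG on either strand, was found in 6 of the 27 member windows (22.2%) and in 38.6% of all windows, and in none of the 3 printed windows. Methylation was not measured on these arrays.

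The other RGD-binding alpha subunits did not pass. Itga5, the main fibronectin receptor subunit, read 8.07, 8.21 and 8.22 untreated and 7.97, 7.9997 and 7.9981 with vitamin C. All vitamin C arrays lay below all untreated arrays, and the difference was -0.18 ± 0.067 (SE, limma adjusted p = 0.128). Itgav, the subunit of the vitronectin receptors and of integrins that activate TGF-beta, read 7.89, 7.88 and 7.76 untreated and 7.74, 7.70 and 7.84 with vitamin C. These groups overlapped, with a difference of -0.082 ± 0.071 (SE, limma adjusted p = 0.494). The platelet subunit gene Itga2b differed by 0.0090 (limma adjusted p = 0.947).

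The laminin-binding alpha subunits differed little. Itga6, the main laminin receptor subunit of ES cells, read 8.55, 8.49 and 8.66 untreated and 8.44, 8.68 and 8.64 with vitamin C. Itga3 read 6.93, 6.95 and 7.03 untreated and 6.70, 6.84 and 7.03 with vitamin C. The groups overlapped in both genes, and vitamin C replicate 1 was the lowest array in each. Itga6 differed by 0.022 ± 0.086 (SE, limma adjusted p = 0.895; 95% interval -0.18 to 0.22) and Itga3 by -0.11 ± 0.093 (SE, limma adjusted p = 0.481; interval -0.33 to 0.11). Itga7, known from muscle, differed by 0.0034 (interval -0.14 to 0.15). Itgb4, whose product pairs with that of Itga6 in hemidesmosomes, differed by -0.033 (interval -0.18 to 0.11).

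The collagen-binding alpha subunits Itga1, Itga2, Itga10 and Itga11 had differences from 0.043 to 0.26, and none passed. Itga1 (0.26 ± 0.11 SE, limma adjusted p = 0.160) was dim in both groups, and the direction of Itga2 and Itga11 turned in some of the alternative settings. In Itga10 all vitamin C arrays, from 5.47 to 5.65, lay above the untreated arrays, from 5.32 to 5.42, with a difference of 0.17 ± 0.071 (SE, limma adjusted p = 0.174). Itga9, a relative of Itga4, differed by -0.18 ± 0.10 (SE, limma adjusted p = 0.300).

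Of the leukocyte alpha subunits other than Itgae, Itgad, Itgal, Itgam and Itgax differed by -0.091 to 0.076 and did not pass. Their common partner Itgb2 differed by -0.0033 (95% interval -0.28 to 0.27). Itgax was dim in both groups. Among the remaining beta subunits, Itgb3, which pairs with the products of Itgav and Itga2b, differed by -0.093 ± 0.071 (SE, limma adjusted p = 0.434), and Itgb5, Itgb6 and Itgb8, further partners of Itgav, by -0.037, -0.095 and 0.0054. Itgb6 was dim in both groups. Itgb2l, a mouse gene close to Itgb2, differed by 0.13 ± 0.076 (SE, limma adjusted p = 0.296). In all, 2 of the 9 beta subunits passed (22.2%), where 13.2% of all genes passed. A difference below 0 was found in 7 of the 9, and in 9417 of all 19938 genes, and those of Itgb2 and Itgb5 changed sign in some settings.

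The genes that work with these subunits were taken from lists compiled from general knowledge. Of 27 other basement membrane genes, 4 rose, 1 fell and 22 did not pass. So 18.5% passed, beside 13.2% of all genes, with a median difference of 0.073, beside 0.012 for all genes. Sparc, a collagen-binding matrix protein, rose by 0.43 ± 0.059 (SE, limma adjusted p = 0.00459), from 10.45 ± 0.025 to 10.89 ± 0.040 (SD, n = 3 each). Npnt and the peroxidase gene Pxdn, whose product crosslinks type IV collagen, rose too, Pxdn by 0.27 ± 0.066 (SE, limma adjusted p = 0.0362). Col4a1 rose by 0.28 ± 0.073 (SE, limma adjusted p = 0.0448). Its call held without untreated replicate 1 (limma adjusted p = 0.0386) and was lost without any other array (up to 0.127), and that of Pxdn was lost without any 1 array (limma adjusted p = 0.0633 to 0.104). Netrin-encoding Ntn1, a laminin relative, fell by 0.31 ± 0.062 on the log2 scale (SE, limma adjusted p = 0.0190), a call that reached 0.0642 with 1 array left out and was lost in 4 of those 6 fits. Nid1, which links laminin to type IV collagen, differed by 0.046 ± 0.063 (SE, limma adjusted p = 0.682), and the perlecan gene Hspg2 by 0.16 ± 0.068 (SE, limma adjusted p = 0.164).

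Beside these matrix genes and Lama4, some markers of other cell types passed. The share was 16.7% for primitive endoderm, 12.5% for endothelium, 60% for fibroblasts and 37.5% for trophectoderm, where 13.2% of all genes passed. The first 2 of these shares lie near the background. Of 12 primitive endoderm markers 2 rose (Dab2 and Gata6) and none fell, and the summed signal went from 9.05 to 9.10 untreated to 9.25 to 9.26 with vitamin C. That rise mainly follows Dab2 (5.64 untreated and 6.53 with vitamin C) and Gata6 (5.97 and 6.35), and the other 10 markers did not pass. With its probe sets averaged, the difference of Dab2 was 0.44 instead of 0.89. Of 10 fibroblast markers 5 rose (Dcn, Col1a1, Col1a2, Col3a1 and Lum) and 1 fell (Pdgfrb), with sums of 9.04 to 9.07 untreated and 9.32 to 9.36 with vitamin C. Lum was dim in both groups (2.96 untreated and 3.68 with vitamin C). Of 8 endothelial markers Tek rose by 1.20 and none fell (Cdh5 differed by 0.031 and Kdr by 0.11), with sums of 9.43 on all untreated arrays and 9.59 to 9.68 with vitamin C. Beside Tek, that sum follows Pecam1, which read 8.95 untreated and 9.09 with vitamin C and did not pass (limma adjusted p = 0.197), while Emcn, Esam, Flt1 and Tie1 had differences from -0.14 to -0.028. The primitive endoderm factors Gata4 (-0.062) and Sox17 (0.15) did not pass. In trophectoderm 1 of 8 markers rose (Gata3) and 2 fell (Krt8 and Krt18), with sums of 9.87 to 9.95 untreated and 9.75 to 9.81 with vitamin C, and none of 5 platelet markers passed. Their part in the differences of the laminin and integrin genes was not tested.

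Among 16 measured laminin receptors other than integrins and genes of dystroglycan glycosylation, 1 rose and 1 fell. That share of 12.5% lies near the 13.2% of all genes, and the median difference was -0.098. Bcam, the receptor for the alpha chain encoded by Lama5, fell 1.46-fold, from 8.77 ± 0.033 to 8.22 ± 0.0065 (SD, n = 3 each, limma adjusted p = 0.00168). The dystroglycan gene Dag1 differed by -0.14 ± 0.061 (SE, limma adjusted p = 0.176) and did not pass. Rxylt1, a xylosyltransferase of the sugar chain on dystroglycan that laminin binds, rose by 0.50 ± 0.076 (SE, limma adjusted p = 0.00733).

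Of 34 other integrin ligands, 6 rose, 4 fell and 24 did not pass. So 29.4% passed, beside 13.2% of all genes, with a median difference of 0.054. Ccn1, a matricellular ligand of Itgav integrins, rose 2.72-fold, from 6.65 ± 0.118 to 8.10 ± 0.065 (SD, n = 3 each, limma adjusted p = 0.000143). Thrombospondin, encoded by Thbs1, rose 1.94-fold (limma adjusted p = 0.000842). Tgfb1, whose latent form is opened by Itgav integrins, fell 1.67-fold (limma adjusted p = 0.000998), and its binding protein gene Ltbp4 fell 1.51-fold (limma adjusted p = 0.00190). The fibronectin gene Fn1, ligand of the Itga5 receptor, differed by -0.041 ± 0.063 (SE, limma adjusted p = 0.719; 95% interval -0.19 to 0.11). Vtn, which encodes vitronectin, differed by 0.060 ± 0.075 (SE, limma adjusted p = 0.648).

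Of 50 genes whose products gather at the cytoplasmic tail of integrins, 5 rose, 3 fell and 42 did not pass. That share of 16% lies near the 13.2% of all genes, and the median difference was 0.029. The core linkers Tln1 (0.031 ± 0.063 SE, limma adjusted p = 0.796) and Ilk (-0.085 ± 0.068 SE, limma adjusted p = 0.454) did not pass. Dab2, an endocytic adaptor that binds beta tails and also a primitive endoderm marker, rose 1.85-fold (limma adjusted p = 0.00184). Its difference of 0.89 became 0.44 when its probe sets were averaged. The phosphatase gene Ptpn12 rose by 0.58 ± 0.078 (SE, limma adjusted p = 0.00432). Tes and Kank1, which encode proteins at and around focal adhesions, fell 1.61-fold and 1.63-fold (limma adjusted p = 0.00168 and 0.00249). The others that passed in this list were Zyx, Parvb, Parva and Dab1. Zyx, Parvb and Parva rose by 0.44, 0.37 and 0.58 (limma adjusted p = 0.0133, 0.0231 and 0.0308). Dab1 fell by 0.27 on the log2 scale (limma adjusted p = 0.0458). Of 19 tetraspanins and other membrane partners, 1 rose and 2 fell (15.8% passed, near the 13.2% of all genes, median difference 0.070). These were Cd81, up by 0.22, and Cd151, a tetraspanin that binds laminin receptors, and Bsg, which fell by 0.31 and 0.23 on the log2 scale (limma adjusted p = 0.0407 to 0.0428). All 3 calls were lost with any 1 array left out (limma, adjusted p = 0.0586 to 0.121).

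**Figure D4:**
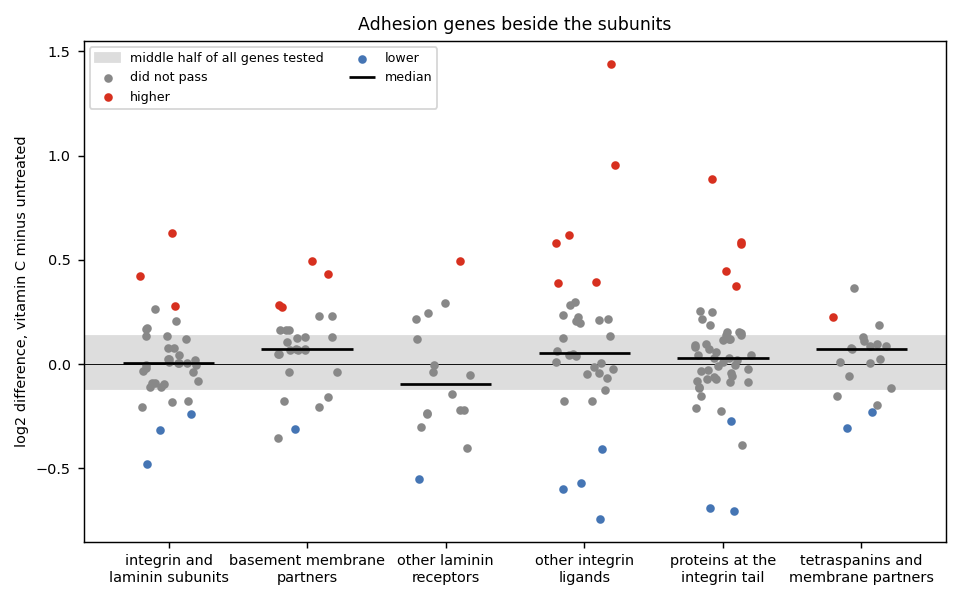
Log2 difference, vitamin C minus untreated (y axis), of each measured gene in the subunit group and the 5 lists of adhesion genes (x axis, points spread sideways for legibility), in red where it rose, blue where it fell and grey where it did not pass. Black bars are list medians, from -0.098 to 0.073, and the grey band, from -0.12 to 0.13, runs from the lower to the upper quartile of all 19938 genes.

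**Figure D5:**
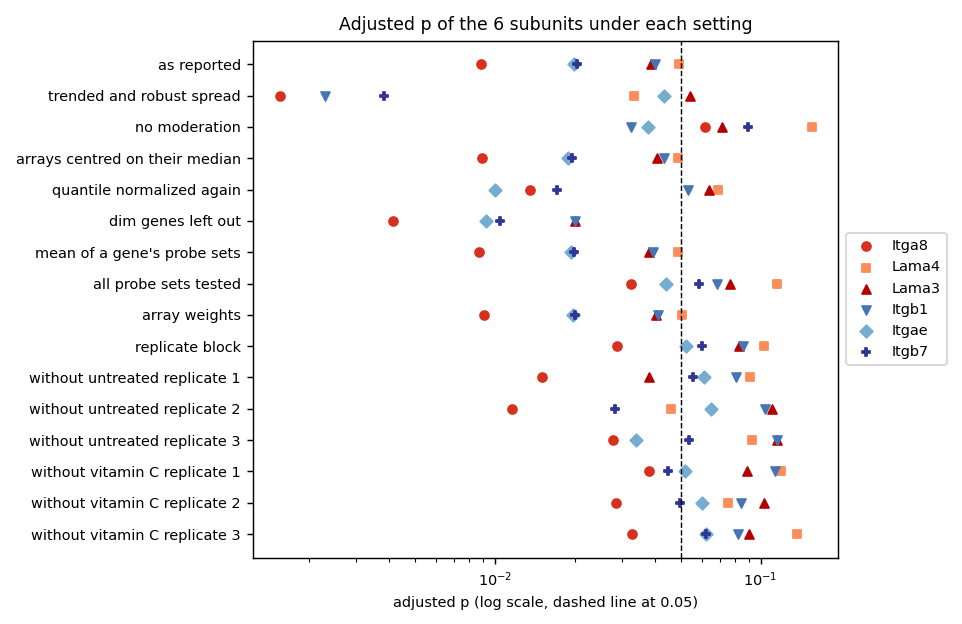
Adjusted p of the 6 subunit genes that passed (x axis, log scale) under each way of running the test (rows), with a dashed line at 0.05. Itga8 lies left of the line in all rows except that without moderation (0.0614), whereas Itgb1 lies right of it in every row that leaves out 1 array.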

How the data were processed

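Arrays were 1-colour Affymetrix arrays, and RNA was amplified and biotin-labelled before hybridisation, per the labels' protocols. The authors deposited 1 table of log2 values for 35557 probe sets, the log2 scale being inferred from their range. RMA is named in the submitters' processing notes. For its version and settings, nothing is given in the sources used here. RMA in general evens out array distributions and compresses differences of dim genes. Probe sets were named from the platform annotation, which gave 1 symbol for 21789, several for 1621 and none for 12147, and 21698 of the first matched a RefSeq mouse gene table by gene ID. Groups came from the titles.

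Vitamin C and untreated arrays were compared with limma 3.58.1 in R 4.3.3 (lmFit, eBayes defaults, no covariate) across 19938 genes, with Benjamini-Hochberg adjustment and a threshold of 0.05. The procedure was tested on simulated data with 200 changed genes per run. It recovered 15.6% of 1.25-fold, 60% of 1.5-fold and 86% of 2-fold changes, and 3.41% of its calls were false. In the data 2623 genes passed, far more than the 200 changed per run. The adjustment was therefore stricter in the simulation, and its rates do not carry over to the data. A small difference that did not pass may still have been missed. Precision is limited by the 6 arrays. Same-numbered arrays were treated as unpaired. The members and lists were chosen with earlier results of these data known. Values by array were given for members that passed and for Lama1, Lama5, Lamb1, Lamc1, Itga3, Itga5, Itga6, Itgav and Itgb1. Of each adhesion list, up to 4 genes with the smallest p among those that passed and 8 fixed genes (Fn1, Vtn, Dag1, Ilk, Tln1, Nid1, Col4a1, Hspg2) were named. Lamb2, whose values by array are also given, and others such as Cdh1, Madcam1, Zyx and Parva were singled out after their values were seen. Figures used matplotlib 3.10.9.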

Additional observations from a re-analysis of the deposited data

How the results depend on the processing

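Against 2623 genes passing in limma's test, 4151 passed with a trended and robust spread, 1545 without moderation, 1470 with all probe sets tested, and 1483 to 1721 with 1 array left out, where fewer arrays remain. Of the subunit genes, 3 higher and 3 lower became 1 higher without moderation, after a further quantile normalization or with all probe sets, 1 lower with all probe sets, and 1 to 2 higher and 0 to 1 lower with 1 array left out. The 5 basement membrane genes became 2, 3 and 3 in those same settings and 2 to 3 with 1 array left out. The 2 other laminin receptors and glycosylation genes became 6 with the trended spread and 4 with dim genes left out, the 10 other ligands 6 without moderation, and the 8 tail proteins 5 without moderation or with all probe sets and 5 to 7 with 1 array left out. The 3 tetraspanins and partners became 0 in limma with all probe sets and 0 with any 1 array left out. With the replicate number as a block, limma called 1723 genes, 1 subunit gene higher and 0 lower, 2 basement membrane genes and 0 tetraspanins. Same-numbered arrays deviated together by correlations of -0.024 to 0.052 only, so the numbers were not read as pairs.

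Differences that changed sign belonged to genes that did not pass. With 1 array left out they ran from -0.056 to 0.23 for Itga11, -0.066 to 0.11 for Itga2, -0.024 to 0.047 for Itga2b, -0.024 to 0.096 for Itga6, -0.027 to 0.033 for Itga7, -0.097 to 0.093 for Itgad, -0.18 to 0.012 for Itgam, -0.11 to 0.12 for Itgax, -0.11 to 0.091 for Itgb2, -0.093 to 0.037 for Itgb5, -0.091 to 0.083 for Itgb8, -0.045 to 0.077 for Lamb1, -0.054 to 0.017 for Lamb3 and -0.046 to 0.030 for Lamc1. After a further quantile normalization Itga2 was -0.0053, Itga2b -0.030, Itga7 -0.055, Itgad -0.028, Itgax -0.030, Itgb8 -0.042 and Lamc1 0.0068. Median centring gave Itga7 -2.9e-05, and array weights gave Itgax -0.0067, Itgb2 0.0069 and Itgb8 -0.00070. The cause of these changes was not tested. Precision is limited by 3 arrays per group and, for Itga1, Itgax, Itgb6 and untreated Lama4, by signals below the lower quartile of the arrays.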

Other observations

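Itgad was the only subunit gene with a second probe set. That probe set read 4.65 untreated and 4.88 with vitamin C, with all vitamin C arrays above all untreated arrays. The difference was 0.22 (limma adjusted p = 0.218, here adjusted over all 35557 probe sets), beside 0.023 for the probe set used, and neither passed.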
